A study of Canis lupus familiaris with 6 samples.

Results

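Splicing regulators are RNA-binding proteins that decide which exons of a transcript are kept, and the present account covers 6 families of them in the left ventricle of dogs. The members were the genes named SRSF or RBM with a number, HNRNP with any ending, CELF1 to CELF6, MBNL1 to MBNL3 and RBFOX1 to RBFOX3, taken by name from the symbols of the array's annotation with no filter on measured values. The choice of these families was made with earlier results of these data known. The rule found 72 genes, measured by 182 of the array's probe sets, out of 15115 genes with a symbol of their own and 42924 probe sets in all. They were 11 SRSF genes, 17 HNRNP genes, 32 RBM genes, 6 CELF genes, 3 MBNL genes and 3 RBFOX genes. A gene's value was the mean of its probe sets. Of the members, 16 had 1 probe set and 56 had 2 or more, up to 8. HNRNPA1 and RBM3 had no probe set with a symbol of their own and were not analysed here.

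The study compared left ventricle from 3 control dogs with left ventricle from 3 affected Great Danes with cardiomyopathy, called DCM in the labels, with 1 Affymetrix array per dog. Control 1 was a Labrador retriever (male, 12 years), control 2 a St. Bernard (female, 10 years) and control 3 a Greater Swiss Mountain dog (male, 4 years). Affected 1 was a female Great Dane of 9 years, and affected 2 and affected 3 were male Great Danes of 7 years. No control dog was a Great Dane, so breed and disease cannot be told apart. The labels name no genotype, drug or other treatment in either group, and all tissue had been frozen in liquid nitrogen.

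Every value is a log2 difference from the median of that probe set over the 6 arrays. The deposited values therefore rank the arrays for 1 gene and hold no expression level. Whether a member was strongly or weakly expressed in the ventricle cannot be read from them, levels of different genes cannot be compared, and the markers of the labelled tissue cannot be checked as levels. A difference of 1 is a 2-fold change. In whole tissue, fewer cells of a type and less RNA per cell cannot be told apart.

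As background, SR proteins (the SRSF family) bind exons through RNA recognition domains and mostly help the spliceosome to include them, while hnRNP proteins coat the new transcript and often keep splice sites from being used. The RBM genes are a mixed group named for the RNA-binding motif they carry, and include spliceosome components as well as tissue-specific regulators. In heart muscle, RBM20, RBM24 and the RBFOX, MBNL and CELF proteins set the adult or fetal isoforms of sarcomere and calcium-handling proteins such as titin, troponin T and the calcium/calmodulin kinase.

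Some features of the whole series bear on these genes. The array carries 17 control probe sets for tags that are not expressed in dog tissue, and their median was 0.06, 0.01 and 0.11 on controls 1 to 3 and -0.03, -0.03 and -0.01 on affected 1 to 3. The control arrays were thus higher than the affected arrays even for sequences with no target. A probe set was said to follow the tags where its 6 values correlated with that tag profile over 0.9. This held for 17800 of 42924 probe sets (41.5%) and for 40 of the 182 member probe sets (22%). Among the cell type marker lists, the fibroblast list (9 of 9 genes measured) had medians of -0.35, -0.03 and -1.71 on controls 1 to 3 and 1.09, 0.03 and 0.73 on affected 1 to 3. The cardiomyocyte list (10 of 11 genes) had medians of 0.01, -0.05 and -0.20 against 0.03, 0.02 and 0.09. The macrophage and monocyte list (8 of 8 genes) had 0.69, -0.41 and -0.61 against 1.65, -0.16 and 0.09. The actin control probe sets at the 3′ end minus those at the 5′ end, a measure of RNA integrity, gave 0.05, 0.16 and -0.23 against 0.25, -0.13 and 0.84, with affected 3 highest. The GAPDH control probe sets, read in the same way, gave -0.03, 0.30 and -0.19 against -0.01, 0.26 and -0.06, with control 2 highest and affected 3 below 0.

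No splicing regulator passed the test between affected and control dogs. The smallest adjusted p of a member was 0.322 (limma, Benjamini-Hochberg over 15115 genes), shared by 21 members, and none of the 15115 genes passed (0%). The differences were small. Of the 72 members, 70 differed by under 0.5 in either direction (97.2%, beside 90.4% of all genes) and 0 by 1 or more, beside 341 of all genes (2.26%). The differences ran from -0.41 for HNRNPUL1 to 0.91 for RBM20, with 38 members above 0 and 34 below. Their median was 0.02 and that of all genes was -0.07. Where no probe set of the gene followed the tags, the median was 0.07 over 47 members and 0.08 over 7378 genes. This choice leaves out probe sets that are lower in affected dogs by their selection, so both medians are shifted upward by it. The exact permutation test with 3 dogs against 3 cannot give a p under 0.1, so no such p is printed for single genes.

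At an unadjusted p under 0.05, 4 members were higher in affected ventricle, SRSF11, RBM48, RBM5 and RBM8A, and 1 was lower, HNRNPUL1. These are 5.56% and 1.39% of the members, beside 4.88% and 5.64% of all genes tested. The share of members higher in affected dogs is thus near that of all genes. It also rests on single arrays. At that p 1 member was higher without control 3 (1.39%, beside 2.63% of all genes). There were 2 without control 1 (2.78%, beside 4.76%) and 9 without control 2. The count of members that were lower at that p was 9 without control 2 and 0 without control 1 (beside 2.32% of all genes). It was 2 without control 3 or without affected 2 (2.78%, beside 3.97% and 3.29%). Without control 2 the members lower at that p were 12.5%, beside 24% of all genes, and those higher were 12.5%, beside 6.28%. With tag-following probe sets left out, 2 members were higher at that p (3.28%, beside 6.86% of all genes) and 0 lower (beside 2.26%). That setting removes probe sets that are lower in affected dogs by their selection. With the upper 60% of probe sets by range 1 was higher (1.64%, beside 6.61%) and 0 lower (beside 2.98%).

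Counted by overlap of the groups, 4 members (SRSF7, RBM48, RBM5 and RBM8A) were higher in every affected dog than in any control dog, 5.56% of members beside 5.8% of all genes. In the other direction 13 members (18.1%) were lower in every affected dog, beside 41.7% of all genes. The split of 4 higher and 13 lower became 7 and 7 after quantile normalization and 9 and 8 when each array was centred on its median, a setting that moves the median of all genes from -0.07 to -0.00. After quantile normalization these were 9.72% of members in each direction, beside 11.8% of all genes higher and 16.8% lower. With centred arrays they were 12.5% higher and 11.1% lower, beside 12.8% and 15.3% of all genes. The count of members higher without overlap was 10 without control 1 or without affected 1 (13.9%, beside 10.7% and 8.02% of all genes). It was 14 without control 2 (19.4%, beside 12%) and 9 without affected 2 (12.5%, beside 12.7%). The share of all genes thus also rose with fewer arrays. The count of members lower without overlap was 20 without affected 2 (27.8%, beside 47.2% of all genes).

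**Figure D1:**
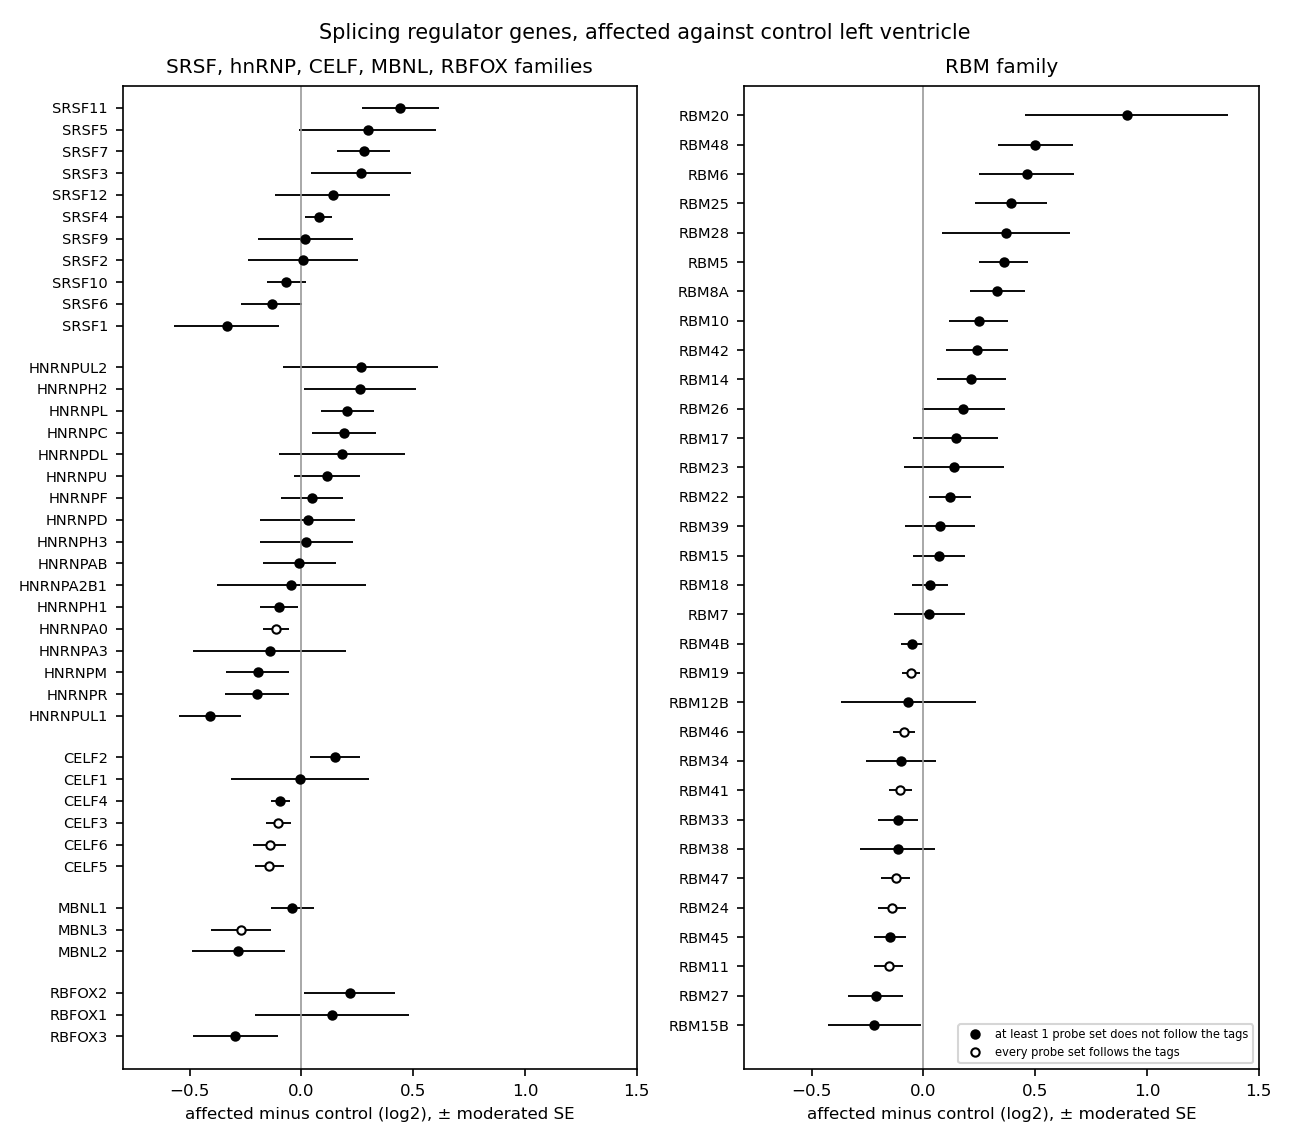
Affected minus control difference (log2, horizontal axis) of the 72 splicing regulator genes, ordered within family, with 1 moderated standard error on each side; open circles are genes whose every probe set follows the unexpressed tags. RBM20 lies farthest to the right at 0.91 with a wide bar, and HNRNPUL1 farthest to the left at -0.41. The 11 open circles all lie below 0, which their selection fixes, since the tags are lower on the affected arrays.

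RBM20, a muscle splicing repressor that removes exons from titin and is mutated in some human families with dilated cardiomyopathy, had the largest difference of the group. Its values were 0.00, -0.46 and -0.14 in controls 1 to 3 and 0.57, -0.08 and 1.65 in affected 1 to 3. Affected 3 stood far above the other arrays, affected 1 was second, and affected 2 lay among the controls, so the groups overlap. The difference was 0.91 (SE 0.46, 95% interval -0.25 to 2.06), a 1.88-fold change, with an unadjusted p of 0.0998 and an adjusted p of 0.322 in limma. Without affected 3 it was 0.44, and without affected 2 it was 1.30.

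Both RBM20 probe sets put the arrays in a like order. The first read 0.00, -0.52 and -0.28 in controls and 0.99, 0.00 and 2.05 in affected dogs, a difference of 1.28 (SE 0.54). The second read 0.00, -0.40 and 0.00 against 0.14, -0.16 and 1.24, a difference of 0.54 (SE 0.40). The highest array is affected 3 on both. The gap between them was 0.74 (SE 0.21, unadjusted p 0.0167, adjusted p 0.52 in limma over 22393 probe sets). Affected 3 is also the array with the highest actin 3′ minus 5′ value, 0.84, while its GAPDH value was -0.06. The fibroblast medians were 1.09, 0.03 and 0.73 in affected 1 to 3, with RBM20 and this list both lowest in affected 2 among the affected dogs. Their highest dogs differ, affected 3 for RBM20 and affected 1 for the list. Among controls RBM20 was lowest in control 2, where the list was highest at -0.03. The part of RNA integrity or fibroblast markers in the RBM20 value was not tested.

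RBM24, which promotes inclusion of muscle exons in the heart, had 1 probe set, and it followed the tags. Its values were 0.10, 0.02 and 0.21 in controls and -0.03, -0.05 and -0.02 in affected dogs, with no overlap. The difference was -0.14 (SE 0.06, unadjusted p 0.0716). The array order is that of the tags, with control 3 highest and control 2 lowest of the controls.

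RBFOX proteins bind UGCAUG elements next to muscle and neuronal exons. RBFOX2 read -0.31, 0.15 and -0.27 in controls and -0.25, 0.36 and 0.11 in affected dogs. The groups overlap, and the 2 low control arrays lie close to affected 1. The difference was 0.22 (SE 0.20), while its 3 probe sets ranged from -0.38 to 0.72. RBFOX1 read 0.10, 0.14 and -0.18 against -0.35, 0.90 and -0.08. Affected 2 was its highest array and affected 1 its lowest, and the difference of 0.14 (SE 0.34) became -0.24 without affected 2. RBFOX3, the neuronal member known as the antigen NeuN, read 0.09, 0.00 and 0.68 against -0.05, -0.03 and -0.04. Its difference of -0.30 (SE 0.19) was -0.08 without control 3, and 2 of its 3 probe sets followed the tags.

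MBNL proteins, which are trapped on CUG repeats in myotonic dystrophy, favour adult isoforms in striated muscle. MBNL1 read 0.19, -0.07 and 0.06 in controls and 0.15, -0.04 and -0.06 in affected dogs. Its groups overlap almost completely, with a difference of -0.04 (SE 0.10, 95% interval -0.29 to 0.20) over 6 probe sets that ranged from -0.40 to 0.40. MBNL2 read 0.62, -0.13 and 0.13 against -0.22, -0.08 and 0.07. Control 1 was its highest array, and the difference of -0.28 (SE 0.21) was -0.08 without it. MBNL3 read 0.16, 0.02 and 0.52 against -0.04, -0.06 and -0.02, a difference of -0.27 (SE 0.14), and all 3 of its probe sets followed the tags. It was -0.13 without control 3.

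CELF proteins oppose MBNL on several muscle exons and favour fetal isoforms. CELF1 read 0.67, -0.39 and -0.27 in controls and 0.12, -0.20 and 0.07 in affected dogs. The controls spread on both sides of the affected dogs. Its difference was -0.01 (SE 0.31, 95% interval -0.79 to 0.77), which leaves room for a change of either sign, and it was 0.33 without control 1. CELF2 read -0.15, 0.06 and -0.34 against -0.05, 0.03 and 0.05, a difference of 0.15 (SE 0.11). Of its 6 probe sets, 4 followed the tags, with differences from -0.13 to -0.03. Those that did not follow them gave 0.65 (SE 0.35) and 0.62 (SE 0.41), and on each the groups overlap.

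The neuronal CELF genes sat at small values. CELF4 read 0.03, 0.09 and 0.04 in controls and -0.03, -0.06 and -0.03 in affected dogs, without overlap. Its difference was -0.09 (SE 0.04, unadjusted p 0.0762), and its 1 probe set did not follow the tags at the correlation used. For CELF3, CELF5 and CELF6 every probe set followed the tags, and their differences lay between -0.14 and -0.10.

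**Figure D2:**
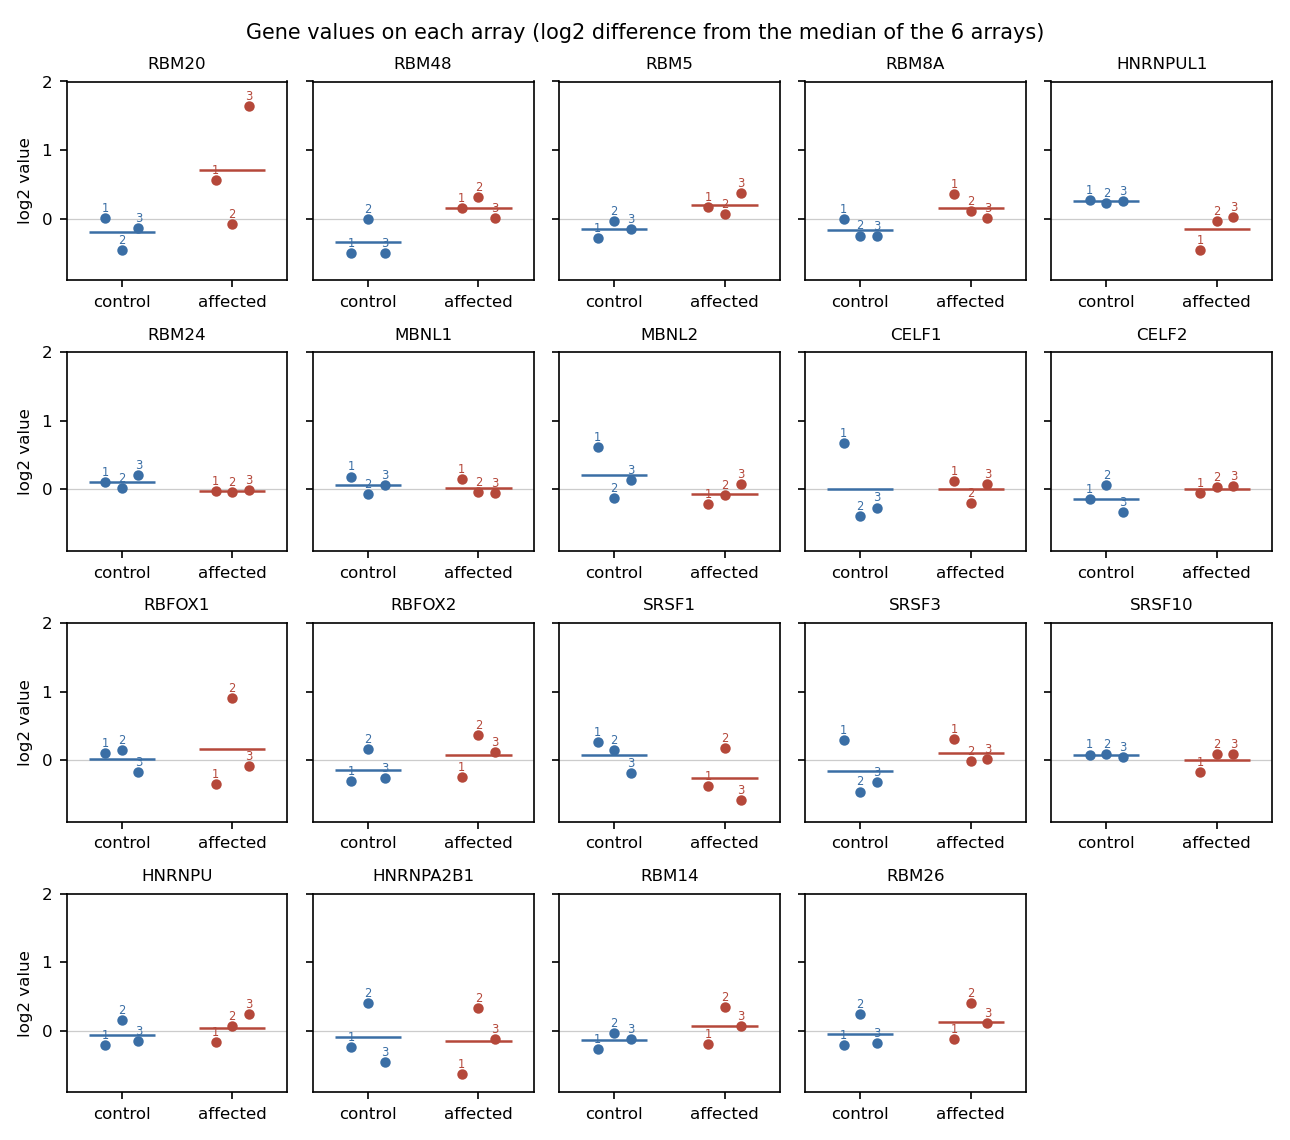
Gene values on each of the 6 arrays (log2 difference from the median of the arrays, vertical axis) for 19 splicing regulators; points are single dogs, numbered as replicates, and horizontal lines are group means. RBM20 is spread from -0.46 to 1.65 with affected 3 on top, while MBNL1 and SRSF10 stay within 0.2 of 0 on every array.

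Among the SR proteins 8 of 11 were above 0, with a median difference of 0.08 and none past the adjusted threshold. SRSF11, an SR-related protein, read -0.40, -0.02 and -0.29 in controls and 0.13, -0.02 and 0.51 in affected dogs. Affected 2 lay level with control 2, and the other affected dogs were above all controls. The difference was 0.44 (SE 0.17, unadjusted p 0.0485, adjusted p 0.322 in limma). Its 2 probe sets differed by 0.65 and 0.23, and the second owed its value to affected 3, at 0.86, with the other 5 arrays between -0.07 and 0.06.

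SRSF7 read -0.09, -0.39 and 0.01 in controls and 0.03, 0.16 and 0.16 in affected dogs, a difference of 0.28 (SE 0.12, unadjusted p 0.0629). The groups do not overlap, by a gap of 0.02 between control 3 and affected 1. One of its probe sets had the smallest p of all 182. It read -0.19, -0.25 and -0.15 against 0.15, 0.24 and 0.33, a difference of 0.44 (SE 0.06, unadjusted p 0.000884). Its adjusted p was 0.296 in limma over the 42924 probe sets, of which 1 passed 0.05 (0.00233%) and 0 of the 182 member probe sets did. The second SRSF7 probe set gave 0.12 (SE 0.20), with control 2 alone low at -0.54.

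SRSF5, an SR protein induced by insulin, read -0.27, 0.32 and -0.56 in controls and 0.11, 0.54 and -0.27 in affected dogs, and the groups overlap widely. Its difference was 0.30 (SE 0.31). SRSF3, which also acts in mRNA export, read 0.29, -0.46 and -0.33 against 0.30, -0.02 and 0.02, with control 1 as high as affected 1. Its difference was 0.27 (SE 0.22) on 1 probe set. SRSF12 had 0.14 (SE 0.26), and affected 2 stood alone at 0.73.

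SRSF1, the founding SR protein, required in the mouse heart for the switch of the calcium/calmodulin kinase isoforms after birth, was the lowest of the family. It read 0.27, 0.14 and -0.19 in controls and -0.38, 0.18 and -0.58 in affected dogs. Affected 2 lay among the controls and the other affected dogs below them. The difference was -0.33 (SE 0.23, 95% interval -0.93 to 0.26). SRSF10, which acts on triadin transcripts in the mouse heart, read 0.08, 0.08 and 0.04 against -0.18, 0.09 and 0.08, and only affected 1 stood apart. Its difference was -0.07 (SE 0.09) over 8 probe sets, of which 3 followed the tags. The other 4 SRSF genes, SRSF2, SRSF4, SRSF6 and SRSF9, had differences from -0.13 to 0.08.

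Of the 17 HNRNP genes, 9 were above 0 and 8 below, with a median of 0.02. HNRNPUL1, an hnRNP U-like protein that also acts in DNA repair, was the only member lower at an unadjusted p under 0.05. It read 0.27, 0.22 and 0.26 in controls and -0.46, -0.04 and 0.02 in affected dogs. The controls lay within 0.05 of each other as a mean of probe sets, though not on any single probe set, and affected 1 was lowest. The difference was -0.41 (SE 0.14, unadjusted p 0.0297, adjusted p 0.322 in limma), and without affected 1 it was -0.26. Of its 3 probe sets, with differences of -0.64, -0.32 and -0.26, the first followed the tags, and the gene's difference without it was -0.29. Only that first probe set kept the groups apart, and on each of the others they overlapped. Control 3 read 0.98 on the first and -0.17 and -0.05 on the others, where affected 3 read 0.09 and 0.01.

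HNRNPU, a nuclear scaffold protein whose loss in the mouse heart alters splicing and causes cardiomyopathy, read -0.21, 0.16 and -0.15 in controls and -0.17, 0.07 and 0.24 in affected dogs. The groups overlap, with a difference of 0.11 (SE 0.15, 95% interval -0.26 to 0.49). HNRNPL read -0.25, 0.07 and -0.28 against 0.09, -0.07 and 0.15, a difference of 0.21 (SE 0.12). Its controls 1 and 3 were below all other arrays and control 2 was among the affected dogs. HNRNPDL read -0.36, 0.49 and -0.51 against -0.01, 0.22 and -0.04, with control 2 highest of all. Its difference of 0.18 (SE 0.28) was 0.49 without control 2 and -0.01 without control 3.

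HNRNPA2B1, which binds sorting signals in RNAs, had the widest disagreement between probe sets of all members. As a gene it read -0.24, 0.41 and -0.46 in controls and -0.63, 0.32 and -0.12 in affected dogs, a difference of -0.04 (SE 0.33). Its 5 probe sets ranged from -0.65 to 1.09. The highest of them read -1.46, 0.57 and -1.68 in controls and -0.22, 0.72 and 0.22 in affected dogs. Controls 1 and 3 are low on it by over 1, and control 2 is not. Another read 0.09, 0.97 and -0.09 against -0.77, 0.37 and -0.59. The differences of these probe sets have opposite signs, although control 2 and affected 2 are the 2 highest arrays on both, and the sign of the gene's difference turned with several settings.

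HNRNPM, a regulator of exon skipping, had a difference of -0.20 (SE 0.14), HNRNPR -0.20 (SE 0.14), HNRNPA3 -0.14 (SE 0.34) and HNRNPC, which binds uridine tracts, 0.19 (SE 0.14). Control 1 was the highest array for HNRNPM at 0.35, for HNRNPR at 0.44 and for HNRNPA3 at 0.81. HNRNPUL2 had 0.26 (SE 0.35) and turned to -0.06 without control 2, which read -0.93. The remaining 7 HNRNP genes ran from -0.12 to 0.26.

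Among the 32 RBM genes, 18 were above 0 and the median was 0.05. RBM48, a component of the minor spliceosome that removes the rare U12-type introns, read -0.50, -0.01 and -0.51 in controls and 0.16, 0.31 and 0.01 in affected dogs. The groups do not overlap, but control 2 and affected 3 lie 0.02 apart. The difference was 0.50 (SE 0.17, 95% interval 0.08 to 0.92, unadjusted p 0.0281, adjusted p 0.322 in limma). Its 2 probe sets gave 0.69 and 0.32.

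RBM5, a regulator of the splicing of apoptosis genes, read -0.29, -0.04 and -0.15 in controls and 0.17, 0.06 and 0.38 in affected dogs, without overlap. The difference was 0.36 (SE 0.11, unadjusted p 0.0200, adjusted p 0.322 in limma), the smallest unadjusted p of any member gene. Of its 4 probe sets, 3 were higher by 0.35, 0.50 and 0.85, and the fourth, at -0.26, followed the tags. Without that probe set the difference was 0.57. RBM6, its neighbour in the RefSeq gene order, read -0.38, 0.07 and -0.56 against -0.04, 0.09 and 0.47, a difference of 0.46 (SE 0.21). Control 2 lay between the affected dogs.

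RBM8A, also called Y14, is a core protein of the exon junction complex that marks spliced mRNA. It read -0.01, -0.25 and -0.26 in controls and 0.36, 0.11 and 0.01 in affected dogs, with 0.02 between the nearest arrays of the groups. The difference was 0.33 (SE 0.12, unadjusted p 0.0402, adjusted p 0.322 in limma) on 1 probe set. RBM25, which associates with the U1 particle, read -0.55, 0.01 and -0.45 against 0.07, 0.13 and -0.01. Control 2 lay among the affected dogs, and the difference was 0.39 (SE 0.16, unadjusted p 0.0554). RBM28, a nucleolar protein, read -0.06, -0.42 and -0.12 against 0.15, -0.35 and 0.70. Its difference of 0.37 (SE 0.28) was 0.10 without affected 3.

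RBM10, a close relative of RBM5, had a difference of 0.25 (SE 0.13) with control 3 lowest at -0.41, and RBM42 had 0.24 (SE 0.14) with affected 2 highest at 0.37. RBM14, a paraspeckle protein and transcriptional coactivator, read -0.27, -0.03 and -0.12 in controls and -0.20, 0.35 and 0.07 in affected dogs. Its difference was 0.21 (SE 0.15), and its 8 probe sets spread from -0.14 to 1.08. RBM26 read -0.21, 0.24 and -0.18 against -0.12, 0.40 and 0.11, a difference of 0.18 (SE 0.19). Of its 5 probe sets, the 2 that followed the tags gave -0.36 and -0.26 and the other 3 gave 0.28, 0.40 and 0.84.

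On the lower side, RBM15B, a component of the m6A methylation complex, read 0.26, 0.19 and -0.19 in controls and -0.42, 0.22 and -0.19 in affected dogs, a difference of -0.22 (SE 0.21). Affected 1 was well below the controls, and affected 3 was level with control 3. RBM27 read 0.33, -0.01 and 0.04 against 0.04, -0.23 and -0.09, a difference of -0.21 (SE 0.12). RBM23 and RBM34 had differences of 0.14 (SE 0.22) and -0.10 (SE 0.16). The other 16 RBM genes lay between -0.16 and 0.14.

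Most members that were lower without overlap track the tags, and so do most such genes of the whole series. These members were HNRNPUL1, RBM11, RBM19, RBM24, RBM41, RBM46, RBM47, CELF3, CELF4, CELF5, CELF6, MBNL3 and RBFOX3. For 10 of these 13 every probe set followed the tags, for 2 some did, and for 1, CELF4, none did. Over all genes it was every probe set for 4812 of 6305, so the share among members is near that of all genes. The tags are themselves lower on every affected array than on any control array. A probe set picked for following them therefore has a difference below 0 by its selection. The 11 members whose probe sets all followed the tags had a median difference of -0.12. That 0 of them were above 0 was fixed in advance and is no result about these genes. With tag-following probe sets left out, 1 of the 61 members still measured was lower without overlap (1.64%, beside 12% of all genes still measured). That step removes lower probe sets by the same selection, so the fall from 13 to 1 is no result about these genes either. What part the array background had in these differences was not tested.

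Probe sets of 1 gene lie on different stretches of its transcripts, so a probe set that departs from the rest of its gene can mark a change in isoform or 3′ end, or a probe set that reads something else. Each of the 166 probe sets of members with 2 or more was set against the mean of the others of its gene. None passed the adjusted threshold (limma, 0% of 22393 probe sets). At an unadjusted p under 0.05 there were 15 (9.04%), beside 9.27% of all probe sets tested, so the share is near that of all genes. They belonged to HNRNPA2B1, HNRNPC, HNRNPM, RBM5, RBM20, RBM23, RBM34, SRSF1 and SRSF5. In a gene with 2 probe sets both are counted, since each is the mirror of the other. The count was 49 without control 2, 6 without affected 3, 7 without control 3 and 9 without affected 1, and it was 8 with tag-following probe sets left out. No share of all probe sets was computed for these settings, so these counts cannot be read as a result about the members.

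The probe sets of SRSF5 show what such a departure looks like. Of its 4, 3 gave 0.43, 0.51 and 0.66, and the last gave -0.41, with values of -0.05, 0.66 and 0.20 in controls and -0.31, -0.17 and 0.05 in affected dogs. The probe set at 0.66 stood 0.49 above the rest of the gene (SE 0.12, unadjusted p 0.00727, adjusted p 0.52 in limma). In HNRNPA2B1 the probe set at -0.65 stood 0.76 below the rest (-0.76, SE 0.19, unadjusted p 0.00844, adjusted p 0.52 in limma). In HNRNPC the 2 probe sets gave 0.36 and 0.02 and in RBM23 0.34 and -0.06.

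**Figure D3:**
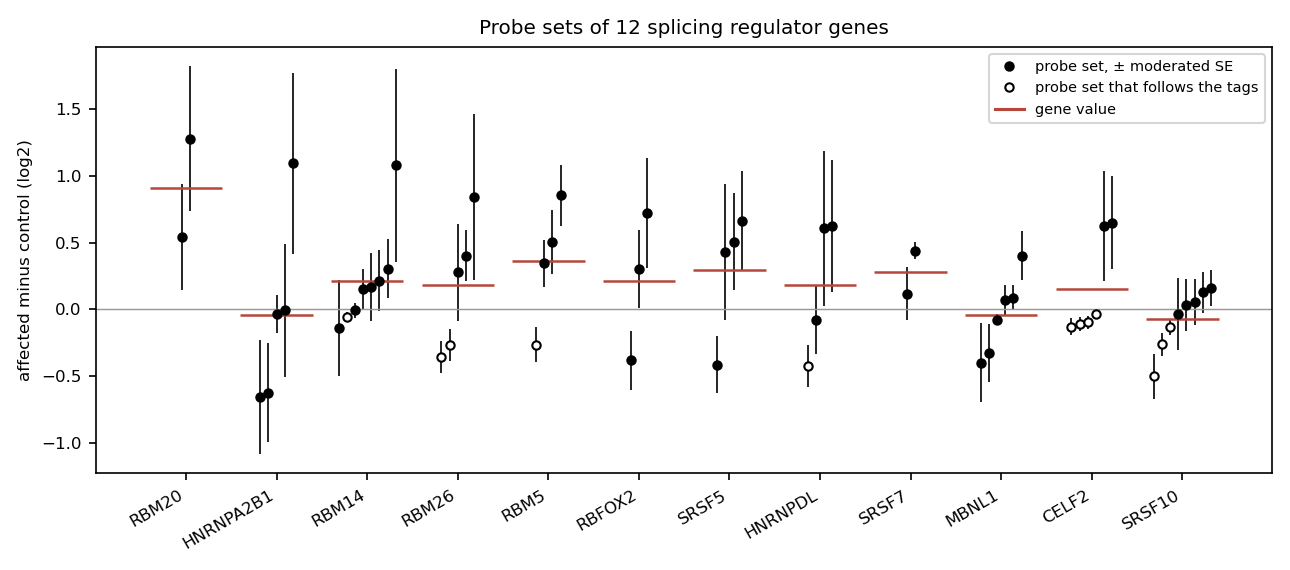
Affected minus control difference (log2, vertical axis) of every probe set of 12 splicing regulator genes, with 1 moderated standard error on each side; open circles follow the unexpressed tags and horizontal lines are the gene values. Probe sets of HNRNPA2B1 span from -0.65 to 1.09. The open circles of RBM5, RBM26, HNRNPDL, SRSF10 and CELF2 lie below the filled ones of the same gene. In RBM14 the open circle at -0.06 lies above a filled one at -0.14. All open circles lie below 0 by their selection, since the tags are lower on the affected arrays.

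The transcripts that RBM20 is known to splice were examined in the same way. Of 19 listed targets 18 were measured, and 14 of their 95 probe sets departed from the rest of their gene at an unadjusted p under 0.05 (14.7%, beside 9.27% of all probe sets tested), with 0 past the adjusted threshold in limma. In the list of other splicing genes described below it was 28 of 182 probe sets (15.4%), so the share is not particular to RBM20 targets. TRDN, the gene of triadin in the calcium release complex, held 7 of the 14, out of its 9 probe sets. These are set against each other and so are not independent. TTN, the gene of titin, held 2 of 20, CAMK2D 2 of 7, and DST, FHOD3 and MLIP 1 each. Across the TRDN probe sets the difference ran from -4.31 to 0.09. Any relation of these departures to the RBM20 values was not tested.

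A profile that recurs among the members has control 1 and control 3 as the 2 lowest arrays. It was found in 12 of 72 members (16.7%), RBM5, RBM6, RBM17, RBM25, RBM26, RBM48, SRSF4, SRSF11, HNRNPDL, HNRNPL, CELF2 and RBFOX2, beside 9.18% of all genes. Among genes with no tag-following probe set it was 8 of 47 members (17.0%), beside 16.0% of all genes, so the profile is about as frequent among members as elsewhere. Control 2 lay among the affected dogs in 7 of the 12, above all of them in HNRNPDL, RBM17 and CELF2, and below all of them in RBM5 and RBM48. The unadjusted count of higher members was 4 with all arrays and 9 without control 2. Control 2 was the only female control and affected 1 the only female affected dog. Control 2 also had the highest median of the red blood cell list (2 of 6 genes measured), 2.77, with the next array at 0.52. For the endothelial list (8 of 8 genes) it was highest at 0.56, with the next at 0.31. Any part of sex or of cell content in this profile was not tested.

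A list of 73 other splicing genes (of 81 listed), holding spliceosome subunits, kinases of SR proteins and further RNA-binding regulators, gives the setting of these values. Their median difference was 0.11, with 46 above 0. At an unadjusted p under 0.05, 11 were higher (15.1%) and 0 lower, beside 4.88% and 5.64% of all genes, and 0 passed the adjusted threshold in limma. Among all genes with no tag-following probe set 8.66% were higher at that p. That set leaves out genes with probe sets that are lower in affected dogs by their selection. The 11 were PRPF3, FUBP1, TRA2B, SF3B1, PNN, SF3B5, TIAL1, U2AF1, SRRM2, SNRPB and SNRPD1. The count was 3 of the 73 without affected 3 (beside 3.31% of all genes). It was 6 without control 3 or without affected 2 (beside 2.63% and 6.97%), and 6 with tag-following probe sets left out (beside 6.86%). The excess over all genes thus also rests on single arrays. The profile with controls 1 and 3 lowest held for 19 of the 73 (26.0%).

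**Figure D4:**
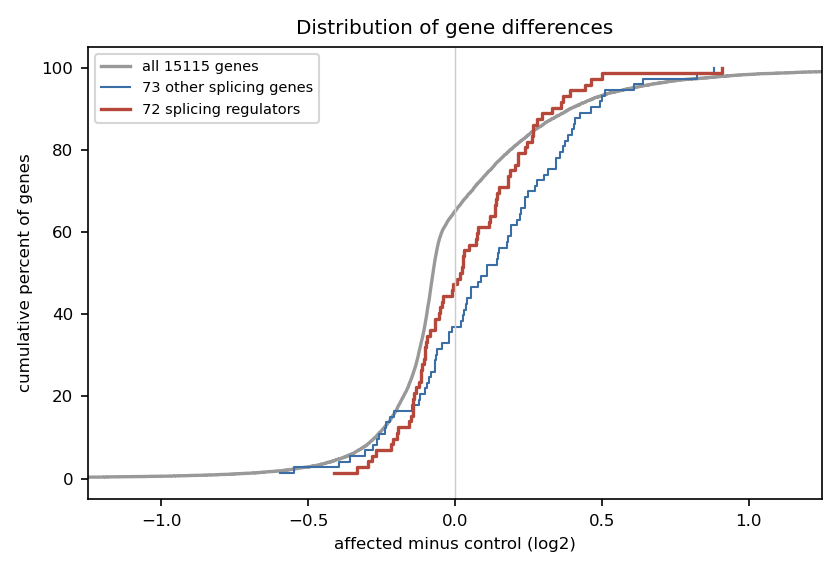
Cumulative percent of genes (vertical axis) by affected minus control difference (log2, horizontal axis) for the 72 splicing regulators, the 73 other splicing genes and all 15115 genes. The curve of all genes rises steeply just below 0, the curve of the regulators crosses 50% at 0.02, and the other splicing genes lie to the right with a median of 0.11.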

How the data were processed

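Total RNA from left ventricle (column extraction with DNase) was labelled by a 1-cycle biotin protocol, per the labels' protocols. The deposited log2 values were used as given; GCRMA and MAS5 are listed in the submitters' processing notes without version, role or order, so the log2 scale is an inference from those tools and from how far the values spread. The median of each probe set over the 6 arrays was 0 (largest absolute median 5e-07), so no filter on level was possible. After removing 111 control probe sets, 42924 remained. The platform annotation gave 29254 of them 1 symbol, 439 several and 13231 none; of the 72 members, 64 gene IDs were found in the RefSeq table, with 0 changed symbols. The genome build is not given in the sources used here, so positions are left out.

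Gene values (means of probe sets) went into a linear model with group alone as its term (limma 3.58.1, R 4.3.3, moderated by eBayes, two-sided). It had 4 residual degrees of freedom and 1.28 from the prior. P-values were adjusted by Benjamini-Hochberg over all 15115 genes, at a threshold of 0.05. SE is the moderated standard error and intervals are 95%. The same fit was made on probe sets and on each probe set minus the mean of the rest of its gene. The scripts were tested on simulated data. The number of arrays, 3 in each group, sets the precision.

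Members and lists were chosen with earlier results of these data known. Genes given in full were those at an unadjusted p under 0.05 without overlap between groups (at most 6 per direction), 12 genes with known roles in heart or muscle splicing, and the 4 members with the widest span between probe sets; further members were chosen after their values were seen. The labels call the arrays biological replicates. Alternatives were quantile normalization, centring of arrays, a filter on range, the probe set with the largest range, sex or age as a covariate, a replicate block, leaving out each array and, added after seeing the data, leaving out tag-following probe sets.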

Additional observations from a re-analysis of the deposited data

How the results depend on the processing

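No member passed the adjusted threshold under any of the 15 alternatives (limma), with a smallest adjusted p of 0.162 for a named member. Of 584 values of the 42 named members under alternatives, 562 kept their direction. The reversed ones were CELF1 at 0.0646 with centred arrays, 0.0306 with the upper 60% by range, 0.15 with the largest-range probe set and 0.0779 with age; HNRNPA2B1 at 0.0281 with centred arrays and 1.09 with the largest-range probe set; MBNL1 at 0.0320 and SRSF10 at 0.00379 with centred arrays; and SRSF10 at 0.0686 without tag-following probe sets. With each array left out the difference ran from -0.21 to 0.33 for CELF1, -0.28 to 0.21 for HNRNPA2B1, -0.42 to 0.17 for HNRNPA3, -0.0101 to 0.49 for HNRNPDL, -0.0625 to 0.56 for HNRNPUL2, -0.11 to 0.0234 for MBNL1, -0.24 to 0.39 for RBFOX1, -0.0554 to 0.30 for RBM23, -0.23 to 0.0449 for RBM34, -0.11 to 0.0196 for SRSF10 and -0.14 to 0.33 for SRSF12.

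The count of members lower at an unadjusted p under 0.05 was 1 as reported. It was 2 (2.78%) after quantile normalization, with sex and with the replicate block, beside 6.95%, 5.78% and 4.44% of all genes. With age it was 8 (11.1%, beside 19.4% of all genes). It was 0 with centred arrays, the range filter, the largest-range probe set or without tag-following probe sets, beside 2.23%, 2.98%, 4.12% and 2.26%. Arrays left out gave 0 to 9, beside 1.85% to 24% of all genes. The count of members higher was 4, then 1 with the range filter (1.64%, beside 6.61% of all genes). It was 2 without tag-following probe sets (3.28%, beside 6.86%). With arrays left out it was 1 to 9 (1.39% to 12.5%, beside 2.63% to 6.97%). Members higher without overlap were 4, then 7 after quantile normalization and 9 with centred arrays. With arrays left out they were 4 to 14, or 5.56% to 19.4%, beside 6.82% to 12.7% of all genes. Members lower without overlap were 13, then 7 after quantile normalization and 8 with centred arrays. They were 5 with the range filter (8.2%, beside 21.3% of all genes). Without tag-following probe sets, which are lower by their selection, they were 1 (1.64%, beside 12%). With arrays left out they were 13 to 20, or 18.1% to 27.8%, beside 43.1% to 48.2% of all genes. The median of members was 0.02, 0.0922 with centred arrays, and -0.0650 to 0.0574 with arrays left out. It was -0.0650 without affected 2 and -0.04 without control 3.

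For the other splicing genes, the count higher was 11, then 4 with the range filter and 6 without tag-following probe sets (beside 6.61% and 6.86% of all genes). It was 3 to 14 with arrays left out (beside 2.63% to 6.97%). The count lower was 0, then 1 after quantile normalization or with the replicate block (beside 6.95% and 4.44%). It was 3 with the largest-range probe set or age (beside 4.12% and 19.4%), and 0 to 3 with arrays left out (beside 1.85% to 24%). The median of the other splicing genes was 0.11, 0.18 with centred arrays and 0.25 with the largest-range probe set (0.07 to 0.13 with arrays left out). Member probe sets apart from their gene were 15, then 8 without tag-following probe sets (6 to 49 with arrays left out). For these settings no share of all probe sets was computed. The cause of these shifts was not tested; the range filter and leaving out tag-following probe sets each keep 61 of the 72 members. The replicate numbers share only a number: the deviations of same-numbered arrays correlated at 0.272, 0.147 and 0.0218. With the replicate block 6 members were higher at an unadjusted p under 0.05 in limma (8.33%, beside 5.54% of all genes). There 2 members were lower (2.78%, beside 4.44%). The array values have no level, so signal over background limits these results to an unknown extent.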
